A study of Mus musculus with 15 samples.

Results

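Of 9 transcription factors chosen because they mark blood progenitors or drive T-cell leukemia (*Tal1*, *Lyl1*, *Lmo1*, *Lmo2*, *Hhex*, *Mef2c*, *Erg*, *Fli1* and *Spi1*), 3 were listed among the 12545 genes of the expression table: *Tal1*, *Lmo1* and *Fli1*. The choice was by name and used no threshold on these values, though earlier results of these data were known when it was made. The other 6 (*Lyl1*, *Lmo2*, *Hhex*, *Mef2c*, *Erg* and *Spi1*) were not listed, so no level is given for them. The 3 listed factors had unlike patterns: *Lmo1* was read in 2 lines, *Tal1* was highest in 1 line and near 0 in most, and *Fli1* was read at a similar level in every line.

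RNA was sequenced from 15 T cell leukemia lines of FVB/NJ mice, grown from thymic cells, with 1 library per line. Both groups lack E2A. The 7 *E2a*-/- lines carry no further engineered allele in their labels, and the 8 DKO lines (labelled *E2a*-/-*Lef*F/F *Lck*Cre+) also carry floxed *Lef1* alleles and a Cre transgene under the *Lck* promoter, which acts in T-cell progenitors of the thymus. Each line is an established culture from a sick mouse, and whether every line came from a different mouse is not given, so p-values measure the spread between these lines.

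TAL1 and LYL1 belong to the basic helix-loop-helix class and pair with E proteins such as E2A and bind E-boxes, which are short DNA motifs of the form CANNTG. LMO1 and LMO2 are LIM-only proteins that bind no DNA themselves and join TAL1, E proteins, GATA factors and LDB1 into a single complex. These genes are normally active in blood stem and progenitor cells or other tissues and are silenced as T cells develop, and their reactivation is a known route to T-cell leukemia in humans and mice. ERG, FLI1 and SPI1 (PU.1) belong to the ETS family, HHEX is a homeobox factor, and MEF2C is a MADS-box factor. HHEX, LYL1, LMO2 and MEF2C are associated with an immature form of the disease.

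The table gives CPM, the reads of a gene scaled to a common library total. Reads on listed genes numbered 4847970 to 21377352 per DKO line and 14477802 to 21681586 per *E2a*-/- line. A level of 3 reads, taken as the lowest that can be told from 0, was 0.138 CPM in the deepest line (SKO95) and 0.618 CPM in the shallowest (DKO79.9). Some libraries stand apart. In SKO132, an *E2a*-/- line, *Lef1*, the gene targeted in the DKO lines, was at 59.0 CPM, below all 8 DKO lines (103 to 210 CPM), while the other *E2a*-/- lines reached up to 1558 CPM. SKO132 also had the lowest *Notch1* level, 31.3 CPM. The *E2a*-/- lines SKO156.6 and SKO186.5 had the closest pair of profiles (Spearman rho of 0.987 over genes), and their counts differed by more than sampling noise, with a median chi-square of 7.14 per gene. They shared their leading T-cell receptor beta segment, *Trbv26* (61.6% and 81.0% of *Trbv* reads), which led in no other line, and whether they are independent lines was not tested. *Lef1* averaged 140 ± 37.1 CPM over DKO lines (SD, n = 8) and 928 ± 478 CPM over *E2a*-/- lines (SD, n = 7), with a log2 fold change of -2.33 and an adjusted p of 0.0980 (limma). Without SKO132 the *Lef1* change was -2.91 (adjusted p of 4.88e-06, limma), and with SKO132 kept the adjusted p was 0.0369 by edgeR's quasi-likelihood test, 1.19e-09 by its likelihood ratio test and 2.10e-08 by DESeq2. The gene values are totals, so deleted and retained exons of *Lef1* and of *Tcf3*, the gene of E2A, cannot be told apart. Each line has 1 value per gene, so fewer cells with a transcript and less transcript per cell cannot be told apart.

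Starts of *Lmo1* and *Tal1* are shown because the factors that bind E-boxes with TAL1 are E proteins, and E2A is missing from all 15 lines. The windows run from 250 bases before to 50 after a RefSeq transcript start (GRCm38.p6), and capitals mark each CANNTG, a motif that reads the same on both strands. The first is 1 of 2 starts of *Lmo1*, minus strand, chr7:109175158-109175457. The window of the other *Lmo1* start, chr7:109175100-109175399, overlaps it, holds the same single match and is not printed. The next are the 2 starts of *Tal1*, plus strand, chr4:115056176-115056475 and chr4:115057561-115057860.
Lmo1: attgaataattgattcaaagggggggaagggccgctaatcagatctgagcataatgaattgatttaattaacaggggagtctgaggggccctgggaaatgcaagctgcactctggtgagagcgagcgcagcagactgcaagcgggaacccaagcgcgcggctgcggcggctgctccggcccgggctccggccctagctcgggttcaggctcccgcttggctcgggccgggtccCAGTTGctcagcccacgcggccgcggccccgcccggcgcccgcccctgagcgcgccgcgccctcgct
Tal1 first start: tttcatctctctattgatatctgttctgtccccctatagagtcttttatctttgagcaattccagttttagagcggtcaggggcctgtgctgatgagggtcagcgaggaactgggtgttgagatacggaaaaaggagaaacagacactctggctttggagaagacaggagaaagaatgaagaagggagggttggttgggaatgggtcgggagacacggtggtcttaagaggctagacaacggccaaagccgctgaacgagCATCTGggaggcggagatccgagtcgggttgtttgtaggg
Tal1 second start: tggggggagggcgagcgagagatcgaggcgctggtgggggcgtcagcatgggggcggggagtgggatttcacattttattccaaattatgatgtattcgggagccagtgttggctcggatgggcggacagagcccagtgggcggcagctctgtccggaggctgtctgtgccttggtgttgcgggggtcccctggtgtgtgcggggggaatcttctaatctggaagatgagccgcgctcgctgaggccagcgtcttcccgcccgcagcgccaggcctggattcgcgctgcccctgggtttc
The printed *Lmo1* window holds 1 match (CAGTTG), the first *Tal1* window 1 (CATCTG), and the second *Tal1* window none. Matches are common, since 72.3% of 32851 windows of this length hold at least 1, and a match does not mark a site of binding.

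*Lmo1*, which encodes a LIM-only partner of TAL1, was read in SKO115.2 and SKO163.5, both *E2a*-/- lines, and had no read in the other 13 lines (8 DKO and 5 *E2a*-/-). The gene (ENSMUSG00000036111) lies on the minus strand of chromosome 7, at chr7:109138572-109175207 of GRCm38. SKO115.2 had 228 reads, or 11.8 CPM (95% Wilson interval 10.4 to 13.5). SKO163.5 had 215 reads, or 11.6 CPM (10.1 to 13.2). The ratio of the 2 lines was 1.02 (95% interval 0.845 to 1.24), so their levels did not differ beyond counting error. These intervals take in only the error of counting, because reads carried no molecular identifiers and may repeat a molecule. In the 13 other lines, 0 of 229802302 reads fell on the gene. Set against 3 reads in the shallowest of those lines, the lower of the 2 levels was at least 18.7-fold higher. Per kb of exon, the 2 lines had 7.61 and 7.45 CPM, against a median of 16.5 CPM per kb for *Fli1* over all lines.

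As a comparison of genotypes, *Lmo1* was at 0 CPM in the 8 DKO lines and averaged 3.34 ± 5.70 CPM over the *E2a*-/- lines (SD, n = 7), whose lowest and median values were also 0. The SD exceeded the mean because 5 of the 7 lines had no read. The log2 fold change on the log2(CPM + 1) scale was -1.05 (SE 0.59, 95% interval -2.30 to 0.20), with an adjusted p of 0.566 (limma, Benjamini-Hochberg over all 12545 genes). The exact two-sided permutation p was 0.20, or 0.682 adjusted over all genes. With reads in only 2 of 15 lines, this test could give no smaller p, so it cannot decide whether the genotypes differ. Tests on whole reads gave unlike answers: adjusted p was 0.303 by edgeR's quasi-likelihood test, 0.00189 by its likelihood ratio test and 3.74e-10 by DESeq2. With all DKO lines at 0, the fitted folds of these tests are no measure of size.

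None of the 3 listed factors passed an adjusted p of 0.01 in limma, where 0.0478% of all genes did (6 of 12545), and none passed an unadjusted p of 0.05, where 10.2% of all genes did. For each of the 3 the ranges of the groups overlapped, as they did for all but 0.175% of genes. By edgeR's likelihood ratio test and by DESeq2, *Lmo1* was the only one of the 3 that passed 0.01, against 1.24% and 1.41% of all genes (0.717% and 0.757% lower in DKO). By the quasi-likelihood test none passed, against 0.00797% of all genes, and *Lmo1* had an unadjusted p of 0.0136, under the 0.05 that 10.8% of all genes passed.

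**Figure D1:**
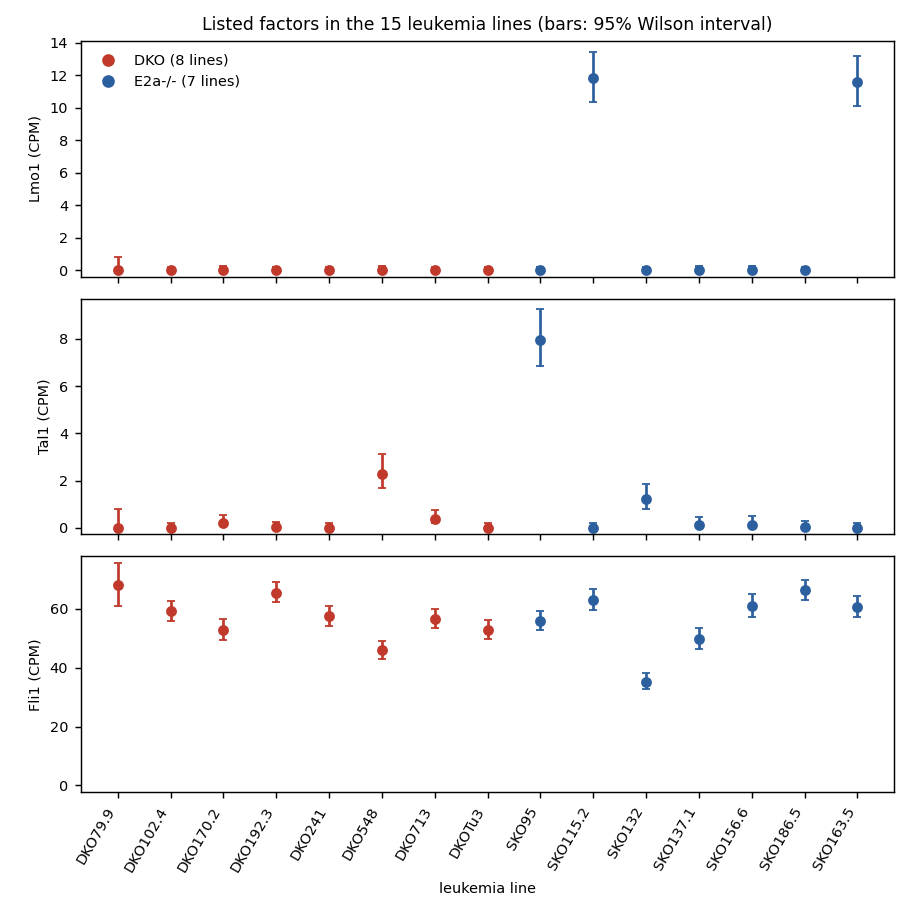
Level of *Lmo1*, *Tal1* and *Fli1* (CPM, linear axes of different range) in each of the 15 lines, red for DKO and blue for *E2a*-/-, with 95% Wilson intervals. *Lmo1* stands above 0 in SKO115.2 (11.8 CPM) and SKO163.5 (11.6 CPM), *Tal1* is highest in SKO95 (7.97 CPM), and *Fli1* lies between 35.2 and 68.0 CPM in every line.

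The 2 lines with *Lmo1* reads also had the second closest pair of profiles of all 105 pairs (rho of 0.969 over genes, after SKO156.6 and SKO186.5), while their leading T-cell receptor beta segment differed, *Trbv20* with 85.8% of *Trbv* reads in SKO115.2 and *Trbv19* with 93.6% in SKO163.5. In all, 644 genes (5.13% of those listed) had these 2 lines as their highest. Only 3 genes reached 5 CPM in both while staying under 3 reads in each of the other 13 lines. They were chosen after their values were seen, and are *Lmo1* itself, *Rgs1*, a regulator of G-protein signaling (22.0 CPM in SKO115.2 and 9.30 in SKO163.5), and *Gimap1os*, a transcript named as the opposite strand of *Gimap1* (33.0 and 24.8 CPM). Whether reads were counted by strand is not given in the sources used here, so *Gimap1os* reads may belong to an overlapping gene.

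Listed genes on either side of *Lmo1* did not share its pattern, with 1 partial likeness. *Eif3f*, which encodes a translation initiation factor subunit 195621 bp away, was read in every line at 248 to 556 CPM, with 389 in SKO115.2 and 329 in SKO163.5. *Rpl27a*, a ribosomal protein gene, ranged from 262 to 578 CPM, with 369 and 332 in the same lines. *Trim66*, of the TRIM family and 273799 bp away, was highest in SKO115.2 (5.86 CPM) and second in SKO163.5 (2.20 CPM), and reached at most 1.65 CPM elsewhere, in DKO79.9. Unlike *Lmo1*, *Trim66* had reads in every line, down to 0.0461 CPM (1 read) in SKO95.

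*Tal1*, the helix-loop-helix factor first found at chromosome breaks in human T-cell leukemia, reached its highest level in an *E2a*-/- line without *Lmo1* reads. The gene (ENSMUSG00000028717) lies on the plus strand of chromosome 4, at chr4:115056426-115071755 of GRCm38. SKO95 had 173 reads, or 7.97 CPM (95% Wilson interval 6.87 to 9.25). DKO548 followed with 40 reads, or 2.30 CPM (1.69 to 3.13), and SKO132 with 22 reads, or 1.21 CPM (0.801 to 1.84). These 3 levels differed beyond counting error: SKO95 was 3.47-fold above DKO548 (95% interval 2.45 to 5.02), and DKO548 was 1.90-fold above SKO132 (1.10 to 3.35). Next came DKO713 with 8 reads (0.387 CPM) and DKO170.2 with 3 reads (0.191 CPM). SKO156.6 and SKO137.1 had 2 reads each, SKO186.5 and DKO192.3 had 1 each, and these 4 lines are not told apart from 0. The remaining 6 lines had no read, SKO115.2 and SKO163.5 among them. *Tal1* was thus at or above 3 reads in 5 lines, and in none of those was *Lmo1* read. Per kb of exon even the SKO95 level, 1.82 CPM, was under that of *Lmo1* in SKO115.2 and of *Fli1* in any line (10.1 to 19.5 CPM per kb).

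Between genotypes *Tal1* averaged 0.366 ± 0.794 CPM over DKO lines (SD, n = 8) and 1.36 ± 2.95 CPM over *E2a*-/- lines (SD, n = 7), with medians of 0.0234 and 0.124 CPM, and the groups overlapped. The log2 fold change was -0.36 (SE 0.44, 95% interval -1.30 to 0.58), with an adjusted p of 0.809 (limma) and an exact permutation p of 0.532. Without SKO95 it was 0.05 (adjusted p of 0.971), so its direction rested on that line.

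Of the neighbors of *Tal1*, *Stil* and *Cyp4x1* did not share its pattern, and *Foxd2os* shared it in part. *Stil*, a centriole gene whose first part is fused to *TAL1* by a recurrent deletion in human T-cell leukemia, ends 13230 bp before *Tal1* and lies on the same strand. *Stil* was at 41.9 to 109 CPM over the lines, with 108 CPM in SKO95, 90.3 in DKO548 and 82.9 in SKO132, while DKO713 held the highest value. *Cyp4x1*, a cytochrome P450 gene on the far side, was at 0.507 CPM in SKO95, inside its range of 0.415 to 1.44 CPM. *Foxd2os*, a noncoding transcript 134459 bp away, was highest in SKO132 (47.4 CPM), DKO548 (20.01), DKO170.2 (17.7) and SKO95 (13.2), all lines with *Tal1* at 3 reads or more, while DKO713, also such a line, had 3.04 CPM. Its 4 lowest lines, SKO115.2 (0.0518 CPM), SKO163.5 (0.108), DKO79.9 (0.206) and DKO102.4 (1.42), had no *Tal1* read, but DKOTu3 and DKO241, also without one, had 8.25 and 6.16 CPM.

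**Figure D2:**
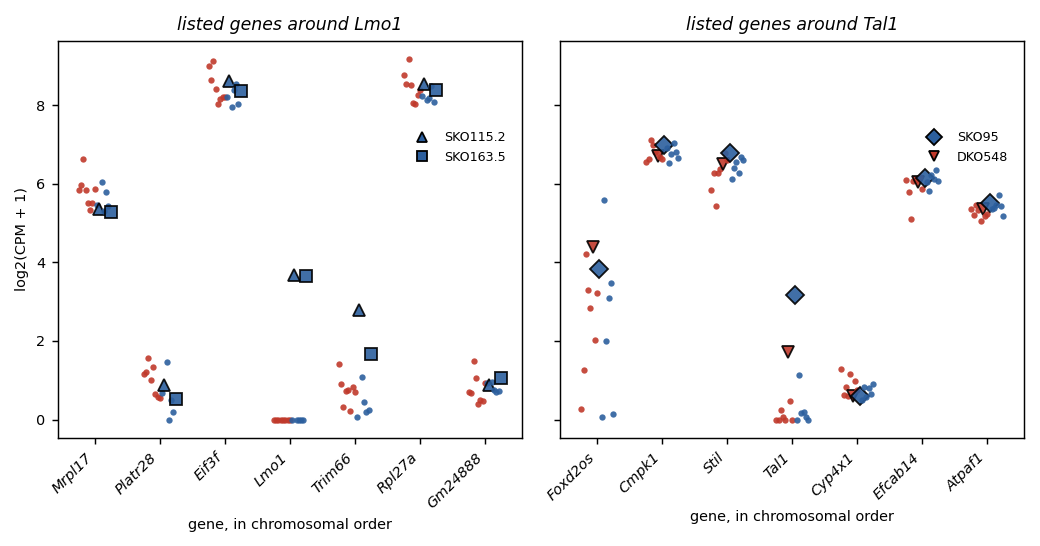
Level of *Lmo1* (left) and *Tal1* (right) and of the 3 listed genes on each side, as log2(CPM + 1) by line, in chromosomal order, red for DKO and blue for *E2a*-/-; large outlined symbols mark the lines named in the legends. *Lmo1* is at 0 outside SKO115.2 and SKO163.5 while *Eif3f* and *Rpl27a* are high in every line, and *Stil* is high in every line while *Tal1* is not.

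In SKO95, 15 of the 12545 genes, *Tal1* itself among them, were at 5 CPM or more and at least 3-fold above every other line. How many genes stood out in this way in each other line was not counted. The 15 genes were chosen after their values were seen. They include *Hey1*, a Notch target of the helix-loop-helix class (128 CPM against at most 5.15), *Erbb2*, a growth factor receptor (31.2 against at most 8.60), and *Sox21* (9.77 against at most 1.12).

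*Fli1*, an ETS factor of hematopoietic progenitors that is also used in early T cells, was read in all 15 lines with little spread. The gene (ENSMUSG00000016087) is at chr9:32422204-32542861 of GRCm38, on the minus strand. In DKO lines it ranged from 45.9 CPM (DKO548) to 68.0 (DKO79.9), with a median of 57.1. In *E2a*-/- lines it ranged from 35.2 CPM (SKO132) to 66.4 (SKO186.5), with a median of 60.6. The groups overlapped almost fully, and SKO132, the line low in *Lef1* and *Notch1*, stood lowest of all 15. The interval of SKO132 (32.6 to 38.1 CPM) did not reach that of the next line, DKO548 (42.8 to 49.2), whereas the 2 highest lines, DKO79.9 (61.0 to 75.7) and SKO186.5 (63.0 to 70.0), overlapped.

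*Fli1* averaged 57.3 ± 7.14 CPM over DKO lines (SD, n = 8) and 56.0 ± 10.6 CPM over *E2a*-/- lines (SD, n = 7). Its log2 fold change was 0.05 (SE 0.13, 95% interval -0.22 to 0.32), with an adjusted p of 0.924 (limma) and an exact permutation p of 0.741. Without SKO132 it was -0.06. The SD of its log2(CPM + 1) over the lines, 0.24, exceeded that of 21.7% of genes, against 0.89 (83.0%) for *Tal1* and 1.29 (90.9%) for *Lmo1*.

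The genes whose levels ran most like *Fli1* over the 15 lines, among 9574 compared, were *Pitpnc1*, a phosphatidylinositol transfer protein gene (Spearman rho of 0.90), *Patz1*, a zinc finger factor gene (0.868), and *Rab10*, a small GTPase gene (0.846). These rho values describe 15 libraries and carry no test. *Ets1*, the ETS gene that lies 93360 bp from *Fli1* on the opposite strand, was far less like it, at a rho of 0.168. *Ets1*, a factor of T-cell development, ran from 507 CPM (SKO95) to 1175 (SKO186.5). Its 2 lowest lines were SKO95 and SKO115.2 (508 CPM), where *Fli1* was at 56.0 and 63.0 CPM. With *Tal1* and *Lmo1*, *Fli1* had a rho of -0.54 and 0.28, both with many lines tied at or near 0.

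The partners and relatives of the 9 factors were described by 5 lists, of which 56 genes were listed. None of the 56 passed an adjusted p of 0.01 in limma or in edgeR's quasi-likelihood test, edgeR's likelihood ratio test or DESeq2. In limma 7 of the 56 passed an unadjusted p of 0.05, 4 higher and 3 lower in DKO, beside 4.33% and 5.83% of all genes. The genes that passed were not the same for each tool: *Lmo4*, *Spib*, *Elf1*, *Id2* and *Tcf7* did so in all 4 tests, *Tcf4* and *Hdac7* in limma alone. In the other 3 tests, 7, 11 and 10 of the 56 did so, beside 10.8%, 8.92% and 13% of all genes.

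Of the LMO-SCL complex and its E proteins, 16 of 21 genes were listed, and 14 of them were at or above 3 reads in every line. The median log2 fold change of the 16 was -0.04, against -0.02 over all genes, with 7 positive and 9 negative. *Ldb1*, the scaffold that LMO proteins hold, ran from 212 to 358 CPM, and *Runx1*, another member, from 159 to 333. *Gata3*, the GATA factor of T cells, ran from 91.9 (DKO713) to 343 CPM (DKO79.9), and *Gata1*, the erythroid one, from 0.0575 (DKO548) to 41.6 CPM (DKO79.9). *Gata2*, *Ldb2*, *Tal2*, *Nhlh1* and *Nhlh2* were not listed. In the *Lmo1* lines SKO115.2 and SKO163.5, *Ldb1* was at 249 and 246 CPM and *Gata3* at 233 and 144 CPM, within the range of the other lines.

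*Lmo4*, a LIM-only relative of *Lmo1* that many tissues express, was read in every line. In DKO lines it ran from 57.5 to 347 CPM with a median of 141, and in *E2a*-/- lines from 33.1 (SKO95) to 159 with a median of 73.8. The 2 highest lines were the DKO lines DKO102.4 (347) and DKO79.9 (304), and the other DKO lines overlapped the *E2a*-/- lines. The log2 fold change was 0.83 (SE 0.38), with an adjusted p of 0.475 (limma).

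Among the E proteins, *Tcf12* (HEB) was at 426 to 1045 CPM and *Tcf3* itself at 117 to 243 CPM. *Tcf4* (E2-2) was the most uneven: 30.3 to 141 CPM in DKO lines (median 72.8), and 0.0948 to 111 CPM in *E2a*-/- lines (median 24.6). Its lowest lines were SKO186.5, SKO156.6 (0.207 CPM) and the *Lmo1* line SKO115.2 (1.76 CPM), all *E2a*-/-, while the other *Lmo1* line, SKO163.5, had 62.6 CPM and SKO95, highest for *Tal1*, had 111 CPM. The log2 fold change was 2.76 (SE 0.95, 95% interval 0.74 to 4.78), with an adjusted p of 0.324 (limma) and an exact permutation p of 0.0124. With SKO156.6 and SKO186.5 averaged it was 2.21.

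Of the ETS family beyond *Fli1*, *Erg* and *Spi1*, 14 of 20 genes were listed, with a median log2 fold change of -0.14 (5 positive, 9 negative). Besides *Ets1*, the genes *Elf1*, *Elf2*, *Elf4*, *Elk4*, *Gabpa* and *Etv6* lay at 62.8 CPM or more in every line. *Spib*, a close relative of *Spi1*, was at 1.70 to 33.9 CPM in DKO lines (median 10.1) and at 0.901 to 8.76 CPM in *E2a*-/- lines (median 3.42). Its 3 highest lines, DKO170.2, DKO192.3 and DKO79.9, were DKO lines, and DKO241 and DKO548 were among the lowest. The log2 fold change was 1.40 (SE 0.55), with an adjusted p of 0.399 (limma). *Elf1*, another ETS gene of lymphocytes, averaged 135 ± 23.2 CPM over DKO lines (SD, n = 8) against 185.7 ± 50.0 over *E2a*-/- lines (SD, n = 7), with a log2 fold change of -0.43 and an adjusted p of 0.386 (limma).

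Of the PEA3 branch of the ETS family, *Etv4* and *Etv5* were listed and *Etv1* was not. These genes, together with *Etv3*, had their highest levels in the *Lmo1* lines and in SKO95, but not in the next lines for *Tal1*. *Etv5*, of that branch and known to respond to growth factor signaling, was at 401 CPM in SKO115.2, 380 in SKO95 and 196 in SKO163.5, with DKO713 next at 88.4 and the lowest line, DKO241, at 0.903. *Etv4*, its relative, was at 18.6 CPM in SKO115.2, 6.24 in SKO163.5 and 1.01 in SKO95, and at no more than 0.147 CPM in any other line. *Etv3*, an ETS repressor gene, was at 282, 246 and 141 CPM in SKO115.2, SKO163.5 and SKO95, with SKO186.5 next at 89.0. *Bcl2*, the survival gene and a member of the progenitor list, ordered these lines as *Etv3* did, at 109, 92.7 and 65.1 CPM, with DKO713 next at 28.4. These 4 were the list genes (4 of 56) for which the 3 lines stood highest, beside 272 of all genes (2.17%). DKO548 and SKO132, the next lines for *Tal1*, stood below these 3 lines. There *Etv5* was at 2.82 and 10.4 CPM, *Etv3* at 68.9 and 10.9, *Bcl2* at 3.97 and 3.42, and *Etv4* at 0 in both. The 3 lines were picked for *Lmo1* and *Tal1* with these values known, so this is a description.

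At 2-fold or more over the next line and 5 CPM or more in each of the 3 lines, 24 genes (0.191%) remained, *Etv5* and *Bcl2* among them. Others of the 24, named after their values were seen, were *Spry4*, an inhibitor of receptor tyrosine kinase signaling (33.6 CPM in SKO115.2, 25.2 in SKO163.5 and 9.95 in SKO95, against at most 0.483), and *Dusp6*, a phosphatase of ERK (110, 61.7 and 163.9 CPM, against at most 8.45). Between genotypes *Etv5* did not pass, at a log2 fold change of -1.06 (SE 1.20) and an adjusted p of 0.789 (limma). The other *E2a*-/- lines were at 2.61 to 10.4 CPM, and the DKO lines at 0.903 to 88.4 CPM. The DKO median, 17.5 CPM, was above the *E2a*-/- median, 10.4 CPM, against the direction of the fold change.

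**Figure D3:**
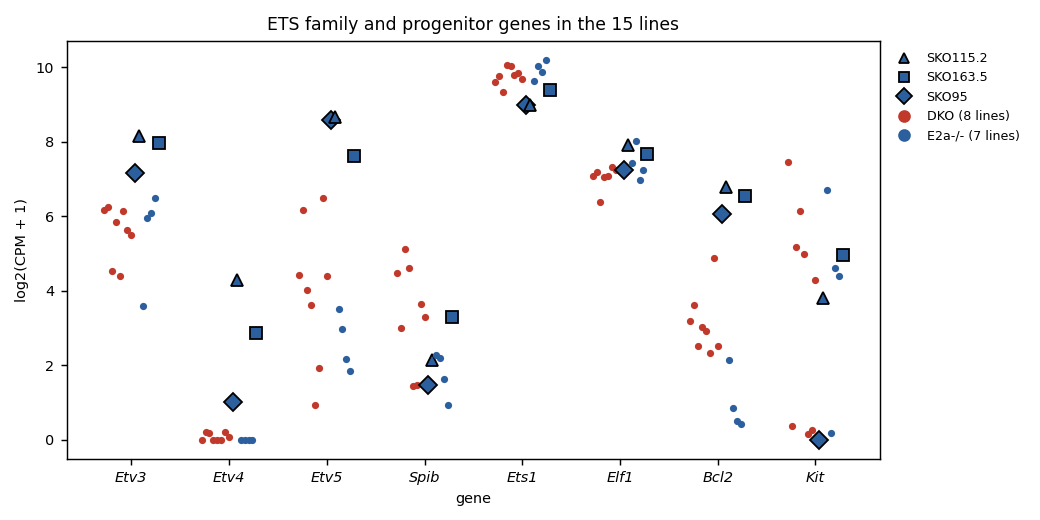
Level of 6 ETS genes, *Bcl2* and *Kit* by line, as log2(CPM + 1), red for DKO and blue for *E2a*-/-, with the *Lmo1* lines SKO115.2 (triangle) and SKO163.5 (square) and the highest *Tal1* line SKO95 (diamond) outlined. The outlined lines stand highest for *Etv3*, *Etv4*, *Etv5* and *Bcl2* and not for *Spib*, *Ets1* or *Kit*.

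Of the MEF2 family other than *Mef2c*, with the class IIa histone deacetylases that bind MEF2 factors, 6 of 7 genes were listed, with a median log2 fold change of -0.22 (1 positive, 5 negative). *Mef2a* ran from 61.3 to 253 CPM and *Mef2d* from 152 to 227 CPM, both highest in SKO132. *Hdac7*, the class IIa deacetylase of thymocytes, averaged 578 ± 275 CPM over DKO lines (SD, n = 8) and 791 ± 149 over *E2a*-/- lines (SD, n = 7), a log2 fold change of -0.54 (adjusted p of 0.437, limma). DKO79.9 had the highest *Hdac7* of all lines (1205 CPM), against its group. *Hdac5* averaged 46.2 ± 21.6 and 30.8 ± 19.8 CPM, a log2 fold change of 0.66 (adjusted p of 0.644, limma). *Mef2b* was not listed.

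Of 24 genes of progenitors and early T progenitors, 15 were listed, with a median log2 fold change of 0.08 (9 positive, 6 negative). The genes not listed were *Cd34*, *Mycn*, *Meis1*, *Hoxa9*, *Bcl11a*, *Cebpa*, *Csf1r*, *Csf3r* and *Mpo*. *Kit*, the stem cell factor receptor, took high and low levels in both groups: it was at 10 CPM or more in 10 lines, from 13.0 in SKO115.2 to 173 in DKO79.9, and under 1 CPM in 5 (DKO102.4, DKO548, DKO713, SKO95 and SKO137.1). *Tal1* was at or above 3 reads in 3 of those 5 lines, and also in SKO132 and DKO170.2, where *Kit* was at 104 and 35.1 CPM. *Flt3*, a receptor of early progenitors, stayed at 0.435 to 2.04 CPM, and *Cd44* at 0 to 2.60 CPM. *Sox4* (211 to 463 CPM) and *Gfi1* (46.4 to 101 CPM) were read in every line.

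*Il7r*, the interleukin-7 receptor gene, was at 0.841 to 262 CPM in DKO lines (median 110) and 0 to 148 CPM in *E2a*-/- lines (median 2.12), and was under 1 CPM in 4 lines, SKO95 and SKO163.5 among them. Its log2 fold change was 2.02 (SE 1.48, adjusted p of 0.666, limma). *Id2*, an inhibitor of E proteins, averaged 20.9 ± 12.9 CPM over DKO lines (SD, n = 8) and 54.7 ± 25.9 over *E2a*-/- lines (SD, n = 7), a log2 fold change of -1.34 (adjusted p of 0.460, limma), with SKO132 low for its group at 5.07 CPM. *Tcf7* was the list gene with the lowest adjusted p in limma, 0.241, at a log2 fold change of 0.66. It averaged 2862 ± 461 CPM over DKO lines (SD, n = 8) and 1878 ± 487 over *E2a*-/- lines (SD, n = 7). The ranges overlapped, at 2217 to 3624 and 800 to 2282 CPM. Its adjusted p was 0.177 by edgeR's quasi-likelihood test, 0.0494 by its likelihood ratio test and 0.0239 by DESeq2. The exact permutation p was 0.00047, or 0.133 adjusted over all genes.

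Of 15 other transcription factor and Notch genes linked to T-cell leukemia, 5 were listed (*Myb*, *Myc*, *Notch1*, *Notch3* and *Bcl11b*). Each of the 5 was at or above 3 reads in every line. *Tlx1*, *Tlx3*, *Nkx2-1*, *Nkx2-5*, *Olig2* and *Lmo3* were among those not listed. *Myb*, a factor of progenitors and T cells, ran from 467 to 966 CPM. *Notch1* had a log2 fold change of 0.47 (adjusted p of 0.857, limma) and *Notch3* of 0.51 (0.759). Without SKO132 they were -0.35 and -0.04, so both directions rested on that line. That of *Notch1* was also negative with SKO132 kept in both edgeR tests and DESeq2, and its mean CPM was lower in DKO (1380 against 1506).

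**Figure D4:**
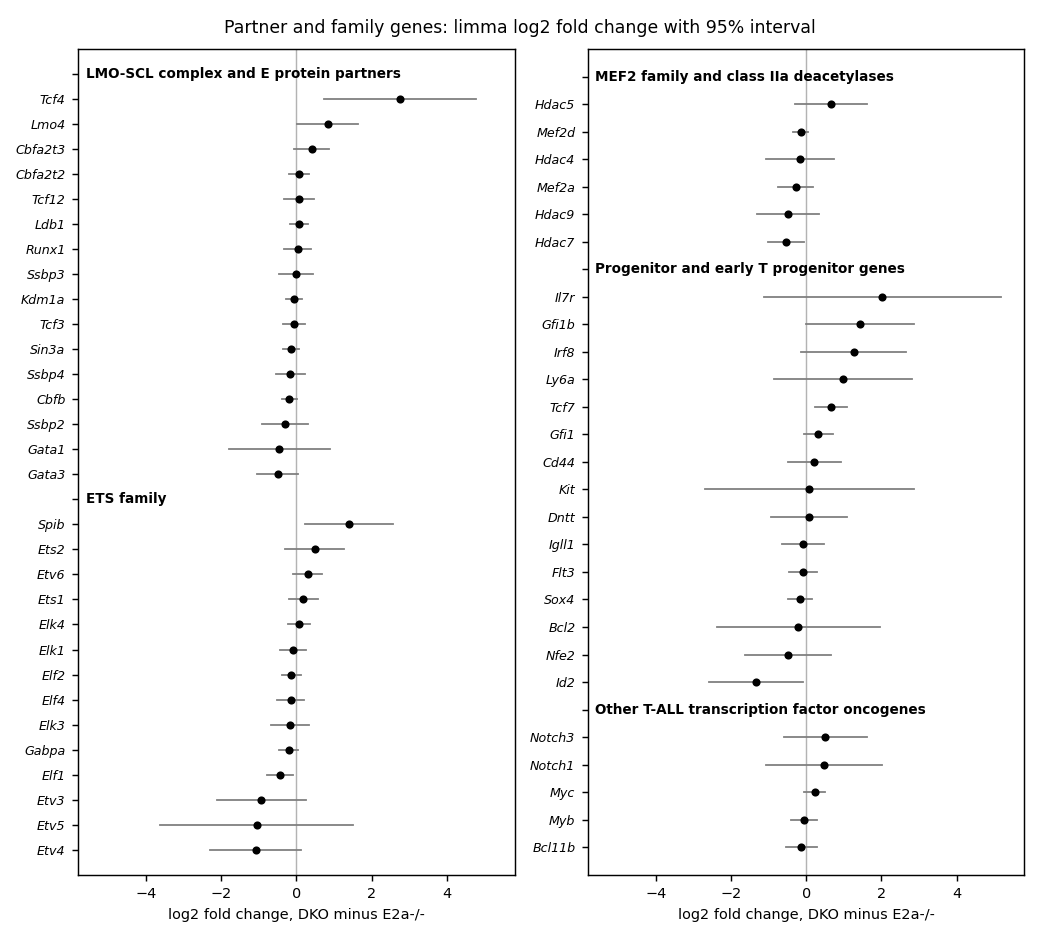
Log2 fold change (DKO minus *E2a*-/-, limma on log2(CPM + 1)) of the listed genes of the 5 lists, points with 95% intervals. None passed an adjusted p of 0.01, and *Tcf4* (2.76) and *Il7r* (2.02) have the largest positive values with wide intervals.

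The T cell label was checked against markers. All 17 T-lineage markers were listed, and they summed to 7648 to 9439 CPM per DKO line and 4747 to 8030 CPM per *E2a*-/- line. These sums hide uneven single markers. In SKO132 *Cd3d* (47.0 CPM), *Cd3e* (184), *Cd3g* (142), *Lck* (320), *Ptcra* (0.165), *Rag2* (0.165) and *Trbc1* (0.276) were at their lowest of all lines. In the same line *Tcf7* was at 2034 CPM and *Trac* at its highest, 112 CPM. For cells that normally express *Tal1*, *Fli1*, *Spi1* or *Erg*, 3 of 13 erythroid, megakaryocyte and mast cell markers were listed (sums of 4.06 to 61.4 CPM in DKO and 3.11 to 72.7 in *E2a*-/-), 4 of 16 myeloid markers (10.9 to 19.2 and 9.77 to 17.8 CPM), and 4 of 9 endothelial and stromal markers (146 to 1190 and 187.0 to 692 CPM). For the other types, 3 of 9 B-lineage markers, mostly *Ighm*, summed to 29.5 to 158 and 26.3 to 263 CPM, and 5 of 8 innate lymphoid markers to 103 to 378 and 204 to 386 CPM. The markers not listed include *Klf1*, the 4 globins, *Pf4*, *Csf1r*, *Mpo*, *Pax5*, *Cdh5* and *Kdr*, and each listed marker reached 3 reads in some line. Some listed ones were read at high levels. Of the endothelial and stromal markers, *Col1a2* ran from 0 (DKOTu3) to 947 CPM (DKO192.3) and *Pdgfrb* from 1.91 (DKO241) to 411 CPM (DKO79.9). *Pecam1* was at 44.9 CPM or more in every line, while *Epcam* reached at most 8.24 CPM. Of the innate lymphoid markers, *Zbtb16* reached 70.7 CPM (SKO186.5) and *Klrb1c* at most 1.37 CPM. The listed erythroid, megakaryocyte and mast cell markers were *Cpa3* (0.249 to 69.2 CPM), *Epor* (at most 10.7) and *Itga2b* (at most 1.91). *Cpa3* was highest in SKO132 (69.2 CPM) and SKO95 (58.8), both with *Tal1* at 3 reads or more. DKO79.9, without a *Tal1* read, had 50.7 CPM of *Cpa3*, and DKO548, second for *Tal1*, had 8.68. No marker of any list passed an adjusted p of 0.01 in limma. Whether other cells contributed to the levels of *Tal1* or *Fli1* was not tested.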

How the data were processed

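The authors deposited 1 table of CPM values, which they made by trimming reads (Trimmomatic version 0.33), aligning them to mm10 (TopHat2 version 2.1.0), counting them per gene (HTSeq version 0.6.1) and scaling with edgeR. How its 12545 genes were selected is not given in the sources used here, and the lowest mean is 0.164 CPM. Values were whole multiples of 1 read within 0.01 for 100% of values, so reads were recovered for intervals and count tests. Gene positions are from GENCODE M21 (GRCm38) by Ensembl identifier, since only 190 genes start within 1 bp of it in the table.

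Groups came from the genotype labels. The main test was limma (version 3.58.1, under R version 4.3.3), fitted with a trend to log2(CPM + 1) over all genes (two-sided), with Benjamini-Hochberg adjustment and a threshold of 0.01. Beside it, exact permutation tests ran over the 6435 splits into 8 and 7 lines. edgeR (version 4.0.16) and DESeq2 (version 1.42.0) were run on the recovered reads. The 9 factors and the lists were chosen with earlier results of these data known. Named genes are the 9 factors, the genes of each list that passed or otherwise the 2 with the largest fold change at a mean of 5 CPM or more, the 3 genes most like a factor with a median of 1 CPM or 3 lines at 5 CPM or more (met by *Fli1*), and *Lef1*; others were chosen after their values were seen. Alternatives used a pseudocount of 0.1 or 2, only genes with a mean of 1 CPM or more, no trend, array weights, other scalings, each line left out, the close pair averaged, and DKO79.9 and SKO132 left out. The tests were tested on simulated data. Microarrays, flow cytometry and the remaining experiments were not analysed here, and results for some genes are not reported here.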

Additional observations from a re-analysis of the deposited data

Results flagged for a closer look

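In 2 of 5 comparisons of a listed factor within a group, 1 line stood apart from its group by Dixon's test on log2(CPM + 1). Chance does this in about 1 in 20 groups of normally distributed values, and its rate for values that are mostly at or near 0, as here, was not tested. *Tal1* in DKO548 was at 2.30 CPM, against 0 to 0.387 CPM in the other 7 DKO lines. *Tal1* in SKO95 was at 7.97 CPM, against 0 to 1.21 CPM in the other 6 *E2a*-/- lines.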

How the results depend on the processing

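*Lmo1* kept a negative log2 fold change under all 27 alternatives, and passed the threshold under 2: -8.90 by edgeR's likelihood ratio test and -21.7 by DESeq2, each against a group at 0. With no *Lmo1* read in any DKO line and reads in 2 *E2a*-/- lines, none of these alternatives could turn its sign. Over the alternatives its adjusted p ran from 3.74e-10 to 0.783. *Tal1* kept its direction and side under 25 of 26 (adjusted p of 0.638 to 0.971), and was 0.053 without SKO95. It could not be fitted under a minimum mean of 1 CPM. *Fli1* kept both under 25 of 27 (adjusted p of 0.716 to 0.9999), and was -0.056 without SKO132 and -0.092 without DKO79.9 and SKO132. With each line left out in turn, *Lmo1* ran from -1.22 to -0.61, *Tal1* from -0.56 to 0.053, *Fli1* from -0.056 to 0.093, and the genes that passed from 3 to 17 (17 without SKO132, 10 without DKO79.9, and 3 without DKO170.2, DKO713, SKO137.1 or SKO156.6). The 6 genes that passed in limma became 29 with array weights, 1 with edgeR's quasi-likelihood test, 155 with its likelihood ratio test, 177 with DESeq2, 30 without DKO79.9 and SKO132, and 19 at an adjusted p under 0.05. The cause of these changes was not tested. No paired analysis was possible because no line number occurs in both genotypes. Depth limits *Tal1* most: 4 of its lines had 1 or 2 reads.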

Other observations

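*Dntt*, which encodes terminal transferase and marks immature lymphocytes, was read in every line and was highest in SKO95, at 1995 CPM, against 107 CPM in DKO79.9. *Ly6a*, which encodes the stem cell antigen Sca-1, was highest in SKO132, at 205 CPM, and lowest in the *Lmo1* lines SKO115.2 and SKO163.5, at 0.674 and 0.968 CPM. *Irf8*, a factor of myeloid and lymphoid progenitors, was likewise lowest in SKO163.5 and SKO115.2, at 1.13 and 1.45 CPM, and highest in DKO170.2, at 70.7 CPM. *Nfe2*, an erythroid and megakaryocyte factor, was highest in DKO79.9, at 13.6 CPM, the line that was also highest for *Gata1* and *Kit*.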
